A study of Mus musculus with 27 samples.

Results

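The 6 genes Hao1, Prodh2, Hoga1, Agxt, Grhpr and Agxt2 of glycolate, glyoxylate and hydroxyproline metabolism are described here in the livers of mice given TCDD. They were taken as a named list from 41388 gene identifiers with counts. All 6 passed the filter on low counts and so were among the 15121 genes tested. The list was chosen by their levels over vehicle and the 8 doses in these same livers, so those levels are given below as a description. No p-value is printed for the 6 genes. Their calls at an adjusted threshold are listed, but nothing is read from them. Messenger RNA was sequenced from 27 livers of ovariectomized female C57BL/6 mice, aged 120 days per the labels, with 3 livers in each of 9 groups. One group received sesame oil, the vehicle, and the other 8 received TCDD, by gavage every 4 days for 92 days. The doses were 0.01 and 0.03 µg/kg, then 0.1 and 0.3 µg/kg, then 1 and 3 µg/kg, and at the top 10 and 30 µg/kg. All 27 mice were without ovaries, vehicle mice included, so each dose is compared with vehicle in that state only. TCDD is a chlorinated dioxin that activates the aryl hydrocarbon receptor (AhR).

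Glyoxylate is a reactive intermediate that the liver makes from glycolate in peroxisomes and from hydroxyproline, an amino acid of collagen, in mitochondria. Aminotransferases turn it into glycine and a reductase returns it to glycolate, while what escapes is oxidized to oxalate, which forms insoluble crystals with calcium in the kidney. Inherited loss of Agxt, Grhpr or Hoga1 function causes the primary hyperoxalurias in people, and glycolate oxidase, the product of Hao1, is a drug target in that disease because it lies upstream of glyoxylate.

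Library totals ran from 11050391 to 30873586 counts in 26 libraries, with a median of 19999504 over all 27. The second library at 0.3 µg/kg held only 434011 counts. Levels are in CPM, counts per 1000000 counts of the library after TMM scaling, and log2 fold changes and their standard errors (SE) come from an edgeR fit to all 27 libraries. Every dose is set against the same 3 vehicle livers, so the 8 comparisons are not independent of each other. Of 5 genes of the AhR response, including Cyp1a1, 2 were called higher at 0.03 and at 0.1 µg/kg, 4 were called higher at 0.3 µg/kg (3 without any 1 vehicle library or the third 0.3 µg/kg library) and all 5 at 1 µg/kg and above. None of the index sequences of the 0.3 to 10 µg/kg groups occurred in the vehicle to 0.1 µg/kg groups, so index set and dose cannot be told apart there. The index sequences of the 30 µg/kg group were among those of the vehicle to 0.1 µg/kg groups. The labels do not say whether the livers of a group were handled separately throughout, and the spread between them is the only error available.

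Hao1 encodes glycolate oxidase, the peroxisomal enzyme that oxidizes glycolate to glyoxylate. It lies on the minus strand of chromosome 2 from 134497361 to 134554368 (GRCm38, ENSMUSG00000027261), with 2284 exonic bases and none shared with another annotated gene. The sequence just before the gene is shown because Hao1 had the largest fall of any gene tested at 10 and 30 µg/kg. Sequence is credited to RefSeq on GRCm38.p6, is read 5′ to 3′ on the strand of the gene, and ends at the last base before the gene.
Hao1, chr2:134554369-134554602, minus strand: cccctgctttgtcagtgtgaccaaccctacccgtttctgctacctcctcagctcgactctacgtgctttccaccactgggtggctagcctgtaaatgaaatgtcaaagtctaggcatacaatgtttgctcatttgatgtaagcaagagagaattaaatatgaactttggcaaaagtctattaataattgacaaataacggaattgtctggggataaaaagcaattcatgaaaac

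The promoters were searched, after the sequences had been seen, for a pair of motifs on both strands, which do not overlap each other in any of these 6 genes. GCGTG is the core that AhR with its partner binds, and CAAAGTCCA is a form of the motif of HNF4, a nuclear receptor of hepatocytes. The window ran from 250 bases before to 50 bases after each start, 300 bases in all. GCGTG was present in the promoter of 1 of the 6 genes, Hoga1, at 98 bases before the start, and in 32.4% of 32851 mouse promoters. CAAAGTCCA was present in both annotated promoters of Agxt2, which overlap and hold the same site, and in no promoter of the other 5 genes. It was present in 0.475% of all promoters. Only exact letters were searched, so near matches are not counted. Since the search followed a look at the sequences, nothing is read from this difference. A match is a run of letters, not a shown binding site, and a missing match says nothing about a factor beyond this window.

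Hao1 messenger RNA overlapped vehicle up to 0.3 µg/kg, was lower at 1 and 3 µg/kg, and was at or near 0 counts at 10 and 30 µg/kg. The 3 vehicle livers had 112, 193 and 175 CPM. In the 4 lowest dose groups the 12 livers lay between 132 and 204 CPM, and each group overlapped vehicle. The log2 fold change against vehicle was 0.07 (SE 0.26) at 0.01, -0.08 (SE 0.26) at 0.03, -0.20 (SE 0.26) at 0.1 and -0.10 (SE 0.27) at 0.3 µg/kg. These differences were smaller than their standard errors.

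At 1 µg/kg the 3 livers had 96.4, 62.1 and 52.8 CPM of Hao1, all under the lowest vehicle liver. The mean was 70.4 ± 22.98 CPM (SD, n = 3) against 160 ± 42.2 CPM in vehicle, which is 44.0% of it (log2 fold change -1.18, SE 0.26). The 1 µg/kg livers were unlike each other in other ways: the summed level of 6 neutrophil markers was 1063 CPM in the first, 4.895 CPM in the second and 179.6 CPM in the third, against 1.203 to 2.611 CPM in vehicle. The first of these livers, with the highest neutrophil sum, also had the most Hao1, and the part of these cells in the Hao1 value was not tested. At 3 µg/kg the livers had 22.5, 10.5 and 13.4 CPM, or 9.68% of the vehicle mean (log2 fold change -3.37, SE 0.29). Hao1 livers at 3 µg/kg did not overlap those at 1 µg/kg.

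At 10 µg/kg, 1 liver had 0 counts of Hao1 and the others had 2 and 3 counts. At 30 µg/kg the livers had 3, 2 and 0 counts. The 3 vehicle livers together held 11054 counts, against 5 in each of these groups. After scaling, the ratio of pooled counts was 2347 (exact 95% interval 1005 to 7228) at 10 µg/kg and 2143 (917.9 to 6600) at 30 µg/kg. These intervals cover counting error only. In the livers with 0 counts, 3 counts would have been 0.100 CPM (10 µg/kg) and 0.160 CPM (30 µg/kg). Absence and a level below about those values cannot be told apart in these livers.

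The course of Hao1 was uneven over the dose range. From 0.3 to 1 µg/kg the mean was lower by 2.10-fold, from 1 to 3 µg/kg by 4.55-fold and from 3 to 10 µg/kg by 212-fold, and none of these neighbouring groups overlapped. The means at 10 and 30 µg/kg, 0.0731 and 0.0676 CPM, differed by less than their spread, and both rest on 5 counts. Ranked by the fitted log2 fold change from the largest fall, Hao1 was gene 360 of 15121 at 1 µg/kg, gene 30 at 3 µg/kg and gene 1 at 10 and at 30 µg/kg. The fitted values at those top doses, -11.10 (SE 0.48) and -10.99 (SE 0.48), depend on the small count added to avoid zeros and are not bounds. They moved to -11.75 without the third 10 µg/kg liver, to -10.43 without the first, and to -11.60 without the first 30 µg/kg liver. The plot of CPM by liver shows this course beside the other 5 genes.

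**Figure D1:**
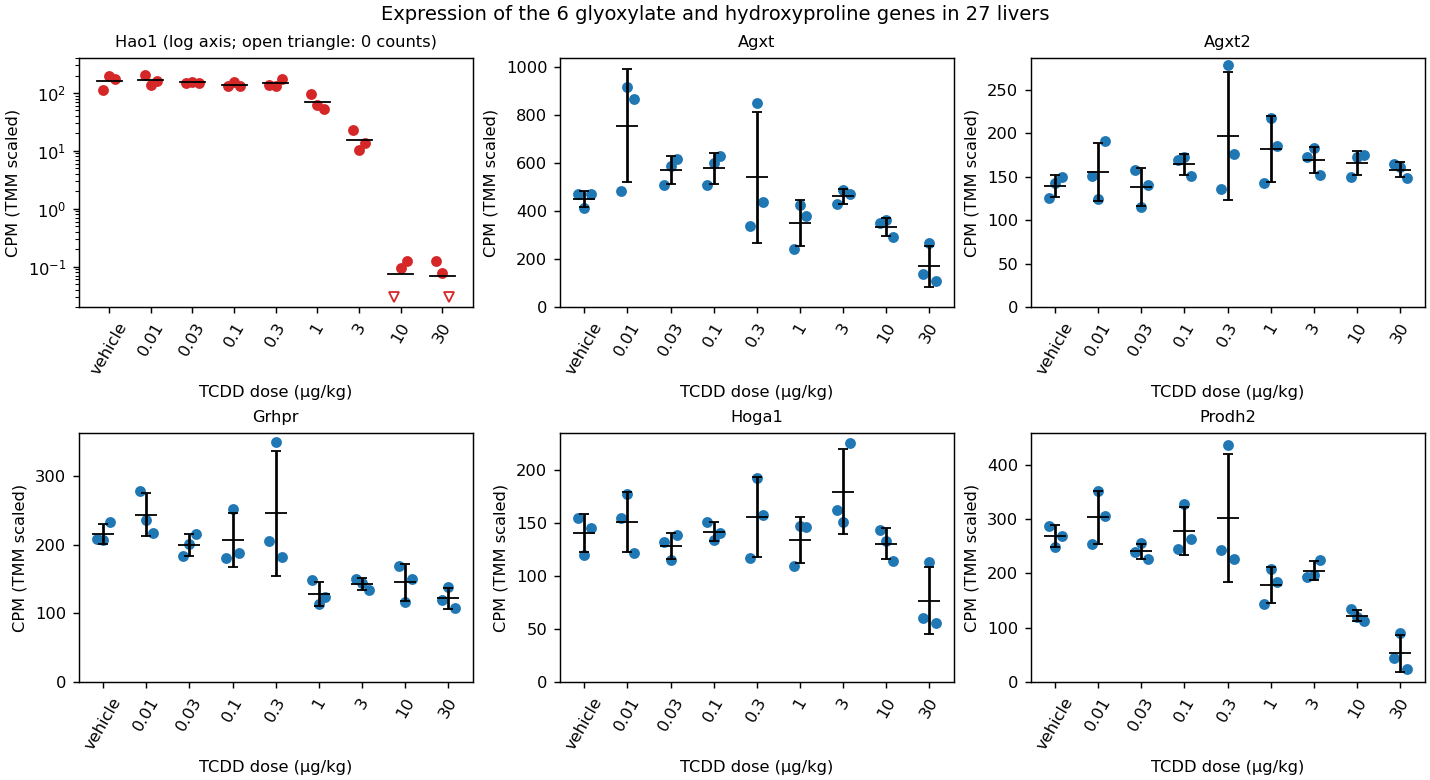
CPM with TMM scaling (y axis) in each liver (points) at vehicle and 8 doses of TCDD in µg/kg (x axis) for the 6 genes, with the group mean as a horizontal line and, outside the Hao1 panel, the SD as a bar (n = 3). Hao1 is on a log axis and open triangles mark livers with 0 counts. Hao1 livers stand between 52.8 and 96.4 CPM at 1 µg/kg and at 0.127 CPM or less at 10 and 30 µg/kg, while Agxt2 stays at or above 115 CPM in every liver.

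Prodh2 and Hoga1 act in the mitochondrial breakdown of hydroxyproline, the other source of glyoxylate. Prodh2 encodes hydroxyproline dehydrogenase, the first enzyme of that route (chromosome 7 from 30493622 to 30513402, plus strand, ENSMUSG00000036892). It had 288, 249 and 269 CPM in vehicle livers. The lowest mean among the 4 lowest doses was 240 ± 14.0 CPM (SD, n = 3) at 0.03 µg/kg, and each of those groups overlapped vehicle. The 1 µg/kg livers had 144, 208 and 185 CPM of Prodh2, and those given 3 µg/kg had 193, 196 and 225 CPM. All 6 of these livers were under the lowest vehicle liver, but 3 µg/kg was not below 1 µg/kg, with log2 fold changes of -0.39 (SE 0.29) and -0.59 (SE 0.29). At 10 µg/kg Prodh2 had 134, 120 and 113 CPM (log2 fold change -1.13, SE 0.30). At 30 µg/kg it had 43.7, 91.0 and 23.9 CPM, a mean 19.7% of vehicle (log2 fold change -2.34, SE 0.31). Without the second of these livers the log2 fold change was -2.99. Of the 6 genes Prodh2 came second to Hao1 at these 2 doses, and unlike Hao1 it was lower at 30 than at 10 µg/kg, with no overlap between those groups.

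Hoga1 encodes the aldolase that splits the last intermediate of hydroxyproline into pyruvate and glyoxylate (chromosome 19 from 42045610 to 42070953, plus strand, ENSMUSG00000025176). Of its exonic bases 1.9% are shared with another gene on the same strand. It had 155, 120 and 146 CPM in vehicle livers and overlapped vehicle at every dose up to 10 µg/kg. Its highest group was 3 µg/kg, with 163, 151 and 226 CPM (log2 fold change 0.36, SE 0.22). Only at 30 µg/kg were all 3 livers, with 60.8, 114 and 56.2 CPM, under the lowest vehicle liver (log2 fold change -0.87, SE 0.22). The second of these was near the lowest vehicle liver, and without it the log2 fold change was -1.27.

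Agxt encodes the aminotransferase that turns glyoxylate into glycine with alanine as donor (chromosome 1 from 93135240 to 93145421, plus strand, ENSMUSG00000026272). Its vehicle livers had 469, 412 and 469 CPM. At the 3 lowest doses every liver was above all vehicle livers. At 0.01 µg/kg they had 484, 915 and 867 CPM (log2 fold change 0.75, SE 0.30), and the ranges were 506 to 615 CPM at 0.03 and 507 to 630 CPM at 0.1 µg/kg (log2 fold changes 0.34 and 0.36, SE 0.30 for each). None of these 3 passed the adjusted threshold, and at 0.03 and 0.1 µg/kg the change was little above its SE. Among all genes tested, 3.71%, 4.38% and 7.36% had all 3 livers above vehicle at 0.01, 0.03 and 0.1 µg/kg.

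At 3 µg/kg Agxt had 428, 489 and 469 CPM, a mean of 103% of vehicle, although Hao1 was at 9.68% in the same livers. At 10 µg/kg Agxt had 350, 363 and 292 CPM (log2 fold change -0.43, SE 0.30), and at 30 µg/kg 136, 266 and 107 CPM (log2 fold change -1.41, SE 0.31), all under the lowest vehicle liver at both doses. Without the second 30 µg/kg liver the log2 fold change was -1.89.

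Grhpr encodes glyoxylate and hydroxypyruvate reductase, which returns glyoxylate to glycolate (chromosome 4 from 44981395 to 44990734, plus strand, ENSMUSG00000035637). Vehicle livers had 209, 207 and 233 CPM. From 1 µg/kg upward all 12 livers were under the lowest of these. Those given 1 µg/kg had 149, 113 and 123 CPM, and those given 3 µg/kg had 150, 144 and 134 CPM. The top doses gave 169, 116 and 151 CPM (10 µg/kg) and 119, 139 and 108 CPM (30 µg/kg). These 4 groups overlapped each neighbour, so Grhpr took 1 step between 0.3 and 1 µg/kg with no further step that exceeded the spread. Its log2 fold changes were -0.75, -0.60, -0.57 and -0.82 in that order, with an SE of 0.19 each.

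Agxt2 encodes a mitochondrial aminotransferase that can use glyoxylate but is better known for the breakdown of 3-aminoisobutyrate and of methylated arginines, which act on nitric oxide synthase. It lies on the plus strand of chromosome 15 from 10358532 to 10410153 (ENSMUSG00000089678), and 4.9% of its exonic bases are shared with a predicted gene on the same strand. Its promoter is shown because Agxt2 was the exception among the 6 genes. The capitals mark CAAAGTCCA, 21 bases before the first of its RefSeq starts, and the sequence ends at the last base before the gene.
Agxt2, chr15:10358283-10358531, plus strand: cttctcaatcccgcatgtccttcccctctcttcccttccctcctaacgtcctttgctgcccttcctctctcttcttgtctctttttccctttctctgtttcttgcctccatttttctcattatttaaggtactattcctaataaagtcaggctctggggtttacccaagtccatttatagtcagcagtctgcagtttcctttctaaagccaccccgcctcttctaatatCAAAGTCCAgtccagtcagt

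Agxt2 had 126, 143 and 150 CPM in vehicle livers and 165, 161 and 149 CPM at 30 µg/kg (log2 fold change 0.18, SE 0.20). Over all 24 dosed livers it lay between 115 and 279 CPM. No dose had its 3 livers below vehicle, and at 0.1 and 3 µg/kg all 3 were above it, at 151 to 173 CPM and 153 to 183 CPM, as were 7.36% and 16.1% of all genes. The highest value, 279 CPM, was in the second 0.3 µg/kg library, the one with 434011 counts. That library was also the highest of its group for Prodh2, Hoga1, Agxt and Grhpr, and without it the 0.3 µg/kg log2 fold changes were 0.15 for Agxt2, -0.21 for Prodh2, -0.04 for Hoga1, -0.23 for Agxt and -0.17 for Grhpr.

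A gene was called at a Benjamini-Hochberg adjusted p below 0.05 in edgeR's quasi-likelihood test over all 15121 genes. Called lower among the 6 were 2 at 1 µg/kg (Hao1 and Grhpr), 2 at 3 µg/kg (the same pair), 3 at 10 µg/kg (with Prodh2) and 5 at 30 µg/kg (with Agxt and Hoga1). Of all genes tested, 8.21%, 4.89%, 11.2% and 19.4% were called lower at those doses. All 3 livers were below vehicle for 3, 3, 4 and 5 of the 6 genes, against 18.6%, 17.5%, 23.2% and 25.9% of all genes. Since these contrasts led to the choice of the genes, nothing is read from the counts. Grhpr at 3 µg/kg was near the threshold, and it was no longer called when any single vehicle or 3 µg/kg library was left out, nor when most single libraries of the other doses were. At 10 µg/kg the call of Grhpr was lost without any 1 vehicle library, without the second 10 µg/kg library, the third 10 µg/kg library, the first 3 µg/kg library, the first 30 µg/kg library or the third 30 µg/kg library, with the RLE and upper-quartile scalings, and with DESeq2. Another scaling of the libraries, by RLE size factors, shifted all genes at 30 µg/kg, from a median of -0.01 to 0.10 on the log2 scale, and gave -10.88 for Hao1, -2.24 for Prodh2, -1.30 for Agxt, -0.71 for Grhpr, -0.76 for Hoga1 and 0.29 for Agxt2.

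**Figure D2:**
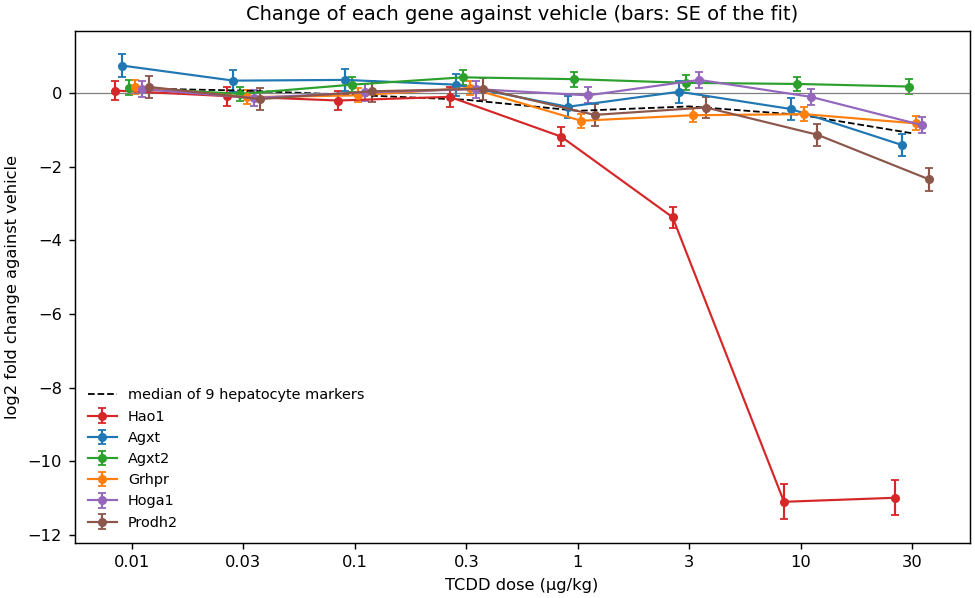
Log2 fold change against vehicle (y axis) at each TCDD dose in µg/kg (x axis, log spaced) for the 6 genes, with bars for the SE of the edgeR fit (3 livers per group), and the median of 9 hepatocyte markers as a dashed line. Hao1 lies under the other genes at 1 µg/kg, with -1.18 (SE 0.26) against -0.75 (SE 0.19) for Grhpr, the next lowest. Differences between genes were not tested. Hao1 reaches -3.37 at 3 µg/kg and -11.10 at 10 µg/kg, Prodh2 reaches -2.34 at 30 µg/kg, and Agxt2 stays at or above -0.02.

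Compared per exonic length, in CPM divided by the exonic length in kilobases (RPKM), the vehicle livers had most Agxt (265 ± 19.6), then Grhpr (135 ± 9.05), Prodh2 (109 ± 7.97), Hao1 (70.1 ± 18.5), Hoga1 (62.2 ± 7.94) and Agxt2 (44.2 ± 3.93; mean RPKM ± SD, n = 3). Hao1 and Hoga1 were closer than the SD of Hao1. The order at 30 µg/kg was Agxt (100.1 ± 49.8 RPKM), Grhpr (76.2 ± 9.53), Agxt2 (50.0 ± 2.68), Hoga1 (34.03 ± 14.1), Prodh2 (21.5 ± 14.0) and Hao1 (0.0296 ± 0.0278). Agxt2 thus had the lowest of the 6 levels in vehicle livers but passed Hoga1, Prodh2 and Hao1 at 30 µg/kg, where Hao1 was last. Agxt and Grhpr, and Hoga1 and Prodh2, were each closer to one another at 30 µg/kg than the larger SD of the pair.

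The second 30 µg/kg liver had the highest level of its group for Prodh2, Hoga1, Agxt and Grhpr. It also had the highest summed level of 9 hepatocyte markers, 101200 CPM against 66990 and 63980 CPM in the others. In vehicle livers that sum was 128000 to 240500 CPM, and 8 of the 9 markers were called lower at 30 µg/kg: Apoa1 (log2 fold change -2.88), Cps1 (-1.72), Fgb (-1.40), Alb (-1.15), Serpinc1 (-1.09), Ass1 (-1.07), Apoc3 (-0.90) and Ttr (-0.84), while Apob had -0.53 and was not called. The calls of Ttr and Ass1 were lost without the third 30 µg/kg library (edgeR adjusted p = 0.183 and 0.0772), and that of Ttr also without the first 30 µg/kg library (0.0658) or the third vehicle library (0.179), with upper-quartile factors (0.0552) and when only the vehicle and 30 µg/kg libraries were fitted (0.105). None of the 9 markers was at 0 in any group. Serpinc1 has 34.4% of its exonic bases opposite Zbtb37 on the other strand. In these whole livers, fewer hepatocytes and less of a messenger RNA per hepatocyte cannot be told apart.

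Set against the summed hepatocyte markers of the same liver, Hao1 at 30 µg/kg was at 0.0955% of vehicle and Prodh2 at 39.6%, and both were below all vehicle livers. Agxt, at 78.4%, overlapped vehicle. Grhpr and Hoga1, lower in CPM, were at 126% and 115% of vehicle on this scale and overlapped it, so the direction of both turns with the scale. Agxt2 was at 258% and above all vehicle livers, as it was at 1, 3 and 10 µg/kg. The marker sum itself was lower at 30 µg/kg, so a gene with unchanged CPM comes out higher on this scale. In CPM, Agxt2 at 30 µg/kg was at 113% of vehicle and overlapped it. At lower doses Hao1 alone of the 6 was below all vehicle livers on this scale, at 12.6% at 3 µg/kg and 0.0616% at 10 µg/kg, whereas at 1 µg/kg, with 70.1%, it overlapped them. Albumin makes up most of the sum, and its own vehicle spread, 139100 ± 49130 CPM (Alb, SD, n = 3), carries into these ratios.

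Markers of several other cell types also differed from vehicle at 30 µg/kg, but not all followed the order of the doses. Neutrophil sums were 4.895 to 1063 CPM at 1 µg/kg and 4.931 to 11.82 CPM at 3 µg/kg. Macrophage and leukocyte sums were 196.2 to 793.3 CPM at 1 µg/kg and 213 to 224.1 CPM at 3 µg/kg. At 30 µg/kg, 5 of 6 bile duct markers were called higher, with sums of 111.3 to 337.5 CPM against 42.41 to 59.28 CPM in vehicle. So were 6 of 6 neutrophil markers (48.36 to 113.8 CPM), 4 of 9 macrophage and leukocyte markers, of which 1 was lower (275.2 to 369.7 against 144.7 to 186.8 CPM), and 3 of 7 stellate cell and fibroblast markers (245.2 to 540.2 against 85.03 to 127.9 CPM). Of 6 endothelial markers 1 was called lower, and the sum overlapped vehicle. These single lower calls, of an endothelial and of a leukocyte marker, were both lost without the first 30 µg/kg library, the leukocyte call also without the third 30 µg/kg or the first vehicle library, and the endothelial call also without the third vehicle library. The leukocyte call was also lost with RLE or upper-quartile factors, with no low-count filter and when only the vehicle and 30 µg/kg libraries were fitted. Of the neutrophil calls, those of Camp and Mpo were lost without the first vehicle library (edgeR adjusted p = 0.101 and 0.0749). That of Mpo was also lost without the third 30 µg/kg library (edgeR adjusted p = 0.123). With no low-count filter, 4 of the 6 neutrophil markers were called higher. The part of these other cells in the levels of the 6 genes was not tested. Kidney, which also expresses several of these genes, gave almost no signal: Slc12a1, Aqp2 and Nphs1 had 0 counts in all 27 libraries, Umod and Slc34a1 had 3 counts each and Slc12a3 had 23.

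Factors that set the hepatocyte program were followed because glyoxylate enzymes are expressed in hepatocytes. Called lower at 30 µg/kg were Onecut1 (10.9 to 1.47 CPM, log2 fold change -2.87), Ppara (-1.18), Prox1 (-0.91), Foxa1 (-0.84) and Foxa2 (-0.82). Hnf4a had 650 ± 38.5 CPM in vehicle and 567 ± 81.6 CPM at 30 µg/kg (log2 fold change -0.20, edgeR adjusted p = 0.421, 3 livers each), and Cebpa (-0.52), Nr1h4 (-0.39) and Nr5a2 (-0.32) were not called either. Foxa2 lost its call with DESeq2 (adjusted p = 0.0559), with RLE size factors (edgeR adjusted p = 0.0688), with upper-quartile factors (0.074), with no low-count filter (0.0854) and without the first vehicle, the second vehicle, the second 30 µg/kg or the third 30 µg/kg library (edgeR adjusted p = 0.066 to 0.184). Onecut1 shares 52.8% of its exonic bases with a predicted gene on its strand.

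Genes next to the 6 in these pathways were taken as 4 lists of 47 genes, of which 46 had counts and 43 were tested. These lists were tested with all other genes. They were not part of the choice of the 6 genes, but were drawn up with earlier results of these data known. Their counts are therefore a description. Of the 43, 26 were called lower and 3 higher at 30 µg/kg, with a median of -0.63 on the log2 scale against -0.01 over all genes, of which 37.4% were called in either direction. At 10 µg/kg 9 were lower and 3 higher (22.5% of all genes in either direction), at 3 µg/kg 3 and 4 (10.1%), at 1 µg/kg 4 and 1 (19.4%) and at 0.3 µg/kg 1 and 1 (1.18%). At 0.01, 0.03 and 0.1 µg/kg edgeR called none (all genes: 0%, 0.0397% and 0.192%), with 2, 1 and 3 of the 43 at an unadjusted p below 0.05, and DESeq2 called 1, 0 and 0. The low-dose counts rest on single libraries: edgeR called 1 at 0.01 µg/kg without its first library, and at 0.3 µg/kg, in place of P4ha2 and Gldc, none without any 1 vehicle library, P4ha2 alone without the third 0.3 µg/kg library and Upb1 alone without the first. In place of 5 at 1 µg/kg it called 3 without any 1 vehicle library, without the first 1 µg/kg library and without the third, and in place of 7 at 3 µg/kg it called 4 without the third 3 µg/kg library. Most calls among the neighbours came at 30 µg/kg, which was also the dose with the most calls among all genes. Prodh2, Hoga1 and Agxt were lowest at that dose, and Hao1 was already at or near 0 counts at 10 µg/kg.

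The glycine and serine list held the largest share of calls, with 12 of 14 lower and none higher at 30 µg/kg. Among all genes tested, 19.4% were called lower at that dose. Gldc, the decarboxylase of the glycine cleavage system, had 274, 256 and 270 CPM in vehicle and 46.4, 54.9 and 53.9 CPM at 30 µg/kg (log2 fold change -2.37, SE 0.19, adjusted p = 4.39e-10). It was called lower from 0.3 µg/kg upward, at a lower dose than Hao1. That lowest call, with -0.76, was lost with RLE size factors (adjusted p = 0.0519), with upper-quartile factors (0.0915), when only the vehicle and 0.3 µg/kg libraries were fitted (0.267), without 5 single libraries of other doses, and without the first 0.3 µg/kg library, the third 0.3 µg/kg library or any 1 vehicle library. Amt, its partner in glycine cleavage, was called from 1 µg/kg upward and had -1.33 at 30 µg/kg. Shmt1, which converts glycine and serine into each other, had -2.14, Sardh, which makes glycine from sarcosine, -1.79 (-2.46 without the second 30 µg/kg library), and Pipox, a peroxisomal oxidase of sarcosine and pipecolate, -1.64. Sdsl, a serine dehydratase relative, had -1.23. Of the members not called, Dmgdh had -0.31 and Dld, which glycine cleavage shares with other enzyme complexes, 0.21.

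In the list of glyoxylate and glycolate neighbours 9 of 15 were called lower and 1 higher at 30 µg/kg, against 19.4% of all genes called lower. Hao2, the relative of Hao1 that oxidizes longer hydroxy acids, had 23.7, 6.96 and 20.3 CPM in vehicle and 1.39, 2.50 and 1.33 CPM at 30 µg/kg (log2 fold change -3.27, SE 0.81, adjusted p = 0.00372). Its 30 µg/kg livers lay below all vehicle livers. Hyi, named for a hydroxypyruvate isomerase but typed as a polymorphic pseudogene in the annotation, had -1.43. Glo1, a glyoxalase, had -1.13 and Slc26a1, an anion exchanger that carries oxalate and sulfate, -0.98. Glyctk, the glycerate kinase downstream of Grhpr, had -1.31 (-1.97 without the second 30 µg/kg library), and 54.2% of its exonic bases lie opposite genes of the other strand, whose reads cannot be told apart from it unless the counting used strand, which is not given in the sources used here. Ldhd, a D-lactate dehydrogenase, was called higher with 1.39, and 42.2% of its exonic bases lie opposite Znrf1. Ldha, a subunit of the lactate dehydrogenase that can oxidize glyoxylate to oxalate, had 541 ± 20.4 CPM in vehicle and 494 ± 3.81 CPM at 30 µg/kg (log2 fold change -0.13, edgeR adjusted p = 0.682, 3 livers each). Pgp, which removes phosphate from phosphoglycolate, had 0.95 with an SE of 0.54 and Haghl 0.28, and neither was called.

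The hydroxyproline and proline list had calls in both directions, with 1 of 7 called lower and 2 higher at 30 µg/kg. At that dose 19.4% of all genes were called lower and 37.4% in either direction, so nothing is read from this count. Between Prodh2 and Hoga1 in the route lie Aldh4a1 and Got2. Aldh4a1, the next dehydrogenase, had 327 ± 32.5 CPM in vehicle and 351 ± 70.2 CPM at 30 µg/kg (log2 fold change 0.10), with 32.5% of its exonic bases shared with a predicted gene on its strand. Got2, the mitochondrial aspartate aminotransferase, was called lower with -0.95 (SE 0.17, adjusted p = 9.5e-05). Prodh, which opens proline breakdown as Prodh2 opens that of hydroxyproline, had 186, 190 and 130 CPM in vehicle and 146, 258 and 111 CPM at 30 µg/kg (log2 fold change 0.02), where Prodh2 had -2.34. At 3 µg/kg Prodh was called higher with 1.05, a call lost without the third vehicle library (edgeR adjusted p = 0.103) or the third 3 µg/kg library (0.0744). Pepd, which frees proline and hydroxyproline from dipeptides, was called higher with 0.85, and P4ha2, a subunit of the prolyl hydroxylase that makes hydroxyproline in collagen, with 1.14. P4ha1, the other main subunit, had -0.12 and was not called. Dao, the D-amino acid oxidase that can make glyoxylate from glycine, had 0 counts in all 27 libraries.

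Agxt2 itself was not lower at 30 µg/kg. Of 7 genes for the breakdown of pyrimidines and methylated arginines, which make or use the substrates of Agxt2, 4 were called lower at 30 µg/kg and none higher. The share called lower among all genes was 19.4%. Dpys had -1.67, Abat, a mitochondrial aminotransferase with an overlapping substrate, -1.32, and Aldh6a1 and Ddah1 -0.63 each, against 0.18 for Agxt2. Aldh6a1 lost its call without the first 30 µg/kg library (edgeR adjusted p = 0.0551), and Ddah1 without the first vehicle library (0.0638) or the third 30 µg/kg library (0.087). Aldh6a1 has 18.6% of its exonic bases opposite a gene of the other strand. Dpyd (-0.32), Upb1 (-0.28) and Ddah2 (0.49) were not called.

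**Figure D3:**
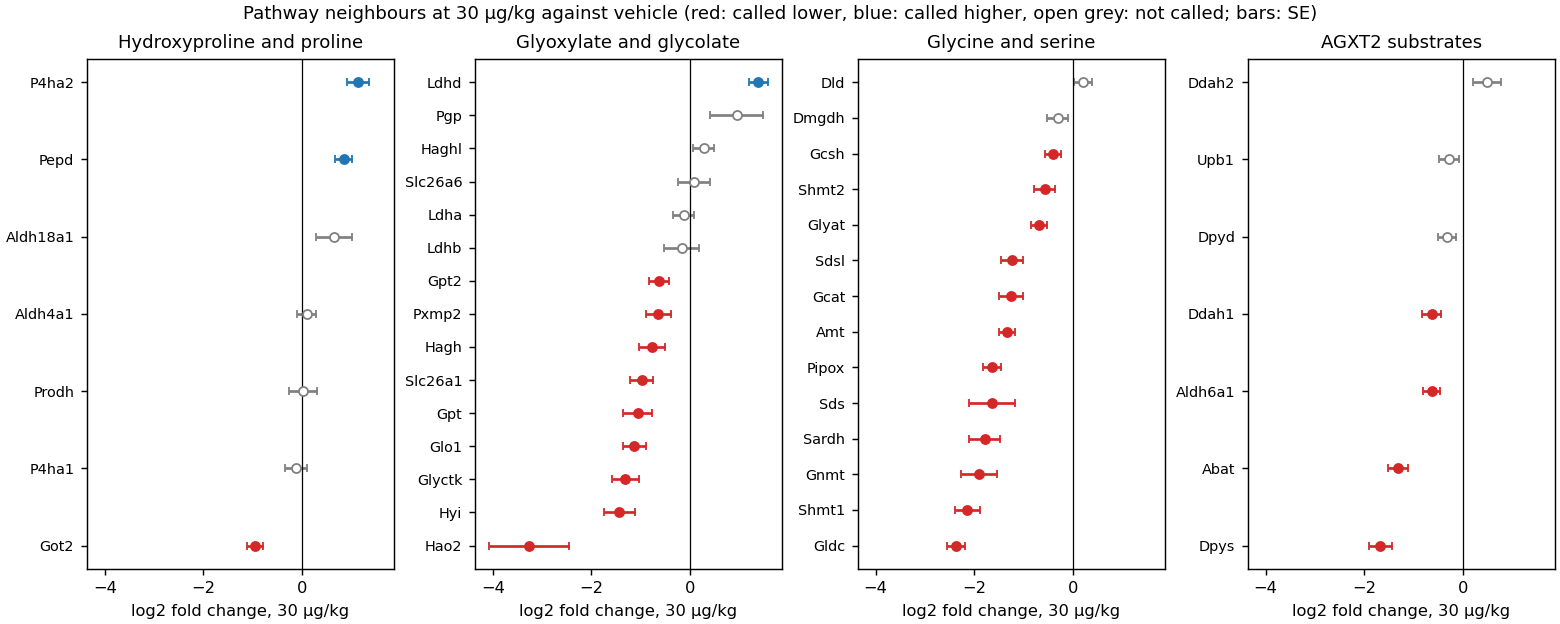
Log2 fold change at 30 µg/kg TCDD against vehicle (x axis) for the 43 tested neighbours of the 6 genes (y axis, 4 lists), with bars for the SE. Red marks genes called lower, blue genes called higher and open grey genes not called at an edgeR adjusted p of 0.05. Of the glycine and serine genes 12 of 14 are red, while the hydroxyproline and proline list has 1 red and 2 blue of 7. Among all genes tested, 19.4% were called lower.

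Hao1 is a peroxisomal protein, and the peroxisome itself was followed through 25 genes. Of these, 8 were called lower and 3 higher at 30 µg/kg, against 37.4% of all genes called in either direction, with a median log2 fold change of -0.37 against -0.01 over all genes. Uox, urate oxidase, had -1.02, while Cat, catalase, had 3003 ± 179 CPM in vehicle and 2325 ± 53.3 CPM at 30 µg/kg (-0.37, edgeR adjusted p = 0.128, 3 livers each) and was not called. Paox had -0.71, a call lost with RLE size factors (adjusted p = 0.0581), with upper-quartile factors (0.0645), with DESeq2 (0.0636) and without the second vehicle, the third vehicle or the third 30 µg/kg library. Acox2 (0.16) and Prdx5 (-0.03) were not called. Among import and membrane genes Pxmp4 (-1.15), Pex16 (-1.10), Pex6 (-0.74) and Pex2 (-0.46) were lower and Pex26 (0.81) and Slc25a17 (0.67) higher. Pex5, the receptor that brings enzymes with the signal at their end into the peroxisome, had -0.27, Abcd3 -0.50 and Pex19 -0.36, and these were not called.

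The genes most like Hao1 were sought by Pearson correlation of log2 CPM over the 27 livers. The search covered 11752 tested genes that averaged 1 CPM or more. Genes without a symbol and predicted gene models (Gm with digits, Rik) had been left out of it. The correlations are a description, since all livers share the dose series and the same libraries. The 8 highest were Ebpl (r = 0.959), St6galnac6 (0.947), Car8 (0.945), Mmd2 (0.944), Car14 (0.941), Sult2a8 (0.933), Pla1a (0.93) and Colec12 (0.929). Their fitted log2 fold changes at 30 µg/kg ran from -1.79 for Colec12 to -6.99 for Mmd2. The level of Mmd2 went from 13.7 ± 2.24 CPM in vehicle to 0.0981 ± 0.0393 CPM (SD, n = 3), so near 0 that its fitted value depends on the small added count. Between 3 and 10 µg/kg, where Hao1 went from -3.37 to -11.10, Mmd2 went from -2.31 to -6.36, St6galnac6 from -2.79 to -4.57 and Ebpl from -1.53 to -2.69. The choice of likeness matters: over the 9 group means only 1 of the 8 stayed among the top 8, and without the 1 µg/kg group 5 did. Of the other 5 pathway genes, Prodh2 was the most like Hao1 with r = 0.83 (rank 197), followed by Agxt with 0.70, Grhpr with 0.63, Hoga1 with 0.51 and Agxt2 with -0.05.

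**Figure D4:**
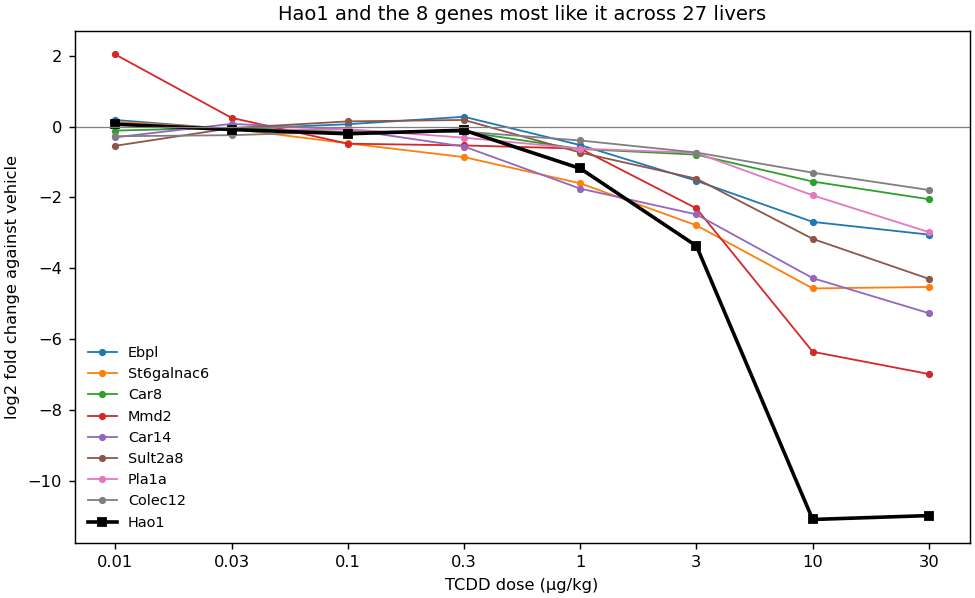
Log2 fold change against vehicle (y axis) at each TCDD dose in µg/kg (x axis, log spaced) for Hao1 (black squares) and the 8 genes with the highest correlation to it over 27 livers (coloured points), each point from the fit to 3 livers per group. All 8 are lower at 30 µg/kg, from -1.79 for Colec12 to -6.99 for Mmd2, and the line of Hao1 lies under all of them from 3 µg/kg upward.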

How the data were processed

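Whole read counts per gene were deposited by the authors. The submitters' processing notes name GRCm38 and FastQC 0.11.2, cutadapt 1.4.1, TopHat 1.4.1, SAMtools 0.1.19, HTSeq 0.6.1 and DESeq. Neither the strand setting of the counting nor the annotation release is stated there. Symbols and coordinates come from the GENCODE annotation of GRCm38 and matched 40254 of 41388 identifiers. Lines for reads on no gene (5.62% to 11.9%) or on more than 1 gene (1.79% to 3.49%) were left out.

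Here, counts were tested in R 4.3.3 with edgeR 4.0.16: filterByExpr (minimum of 10 counts), TMM, and 1 robust quasi-likelihood model over 27 libraries, each dose against vehicle, two-sided, Benjamini-Hochberg over 15121 genes. The SE is the log2 fold change divided by the square root of F. RPKM uses exonic length. No 2 libraries of a group matched within sampling noise (chi-square per degree of freedom at least 6.07). A label calls the dosing both daily and every 4 days. On simulated counts for 30 µg/kg against vehicle (15121 genes, 200 changed), the share recovered was 12% at 1.5-fold, 40% at 2-fold and 91.2% at 4-fold, with 3.37% false among calls.

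The members and lists were chosen with earlier results of these data known. Named were the 6 genes; per list, up to 6 called at 30 µg/kg by smallest adjusted p and up to 3 not called by highest level; every hepatocyte marker and factor; and the 8 genes most like Hao1. Dao was named after its values were seen. Prmt1 and Tf were not analysed here, and of the genes this rule names 1 factor and 1 peroxisome gene are not reported here. The alternatives tried were other scalings (RLE, upper quartile) and filters, DESeq2 1.42.0, a fit of 6 libraries alone, an adjusted p of 0.01, a replicate block and leaving out each library. Promoters are from RefSeq (GRCm38.p6), with all 6 genes matched. Proteins are not shown.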

Additional observations from a re-analysis of the deposited data

How the results depend on the processing

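With 3 livers per group, 40% of the simulated 2-fold changes were recovered. The simulation changed 200 of 15121 genes, while 5660 were called at 30 µg/kg in the data, so its shares need not hold there. At 10 and 30 µg/kg Hao1 rests on 5 counts a group. Replicate numbers are shared across groups but same-numbered libraries did not deviate together (mean r = 0.0109, 21 of 108 pairs above 0.1, 13 of 27 libraries closest to their own number). With a replicate block Hao1 had -11.01 and Prodh2 -2.44 at 30 µg/kg, and no count of called genes among the 6 genes, the pathway neighbours or the peroxisome genes moved by over 1.5 times. Among marker lists it called 4 stellate cell and fibroblast markers higher at 30 µg/kg in place of 3, and 1 bile duct marker lower at 0.3 µg/kg in place of 0.

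Against their summed hepatocyte markers, Grhpr (0.34) and Hoga1 (0.20) turned direction at 30 µg/kg; the sum itself was lower there. At 3 µg/kg, 1 of the 6 genes instead of 2 was called with RLE or upper-quartile factors, no low-count filter, a filter of 1 CPM in 3 libraries, an adjusted p below 0.01, or any single vehicle or 3 µg/kg library left out (1 to 2 over all omissions). Counts of called pathway neighbours moved as follows. At 0.01 µg/kg (none), DESeq2 gave 1 and leaving out single libraries 0 to 1. At 0.3 µg/kg (2), RLE and upper-quartile factors gave 1, the 6 libraries alone and an adjusted p below 0.01 gave 0, and omissions 0 to 2. At 1 µg/kg (5), an adjusted p below 0.01 gave 3 and omissions 3 to 6. At 3 µg/kg (7), the 6 libraries alone gave 13 and omissions 4 to 8. For peroxisome genes at 0.3 µg/kg (1), upper-quartile factors, the 6 libraries alone and an adjusted p below 0.01 gave 0, and omissions 0 to 2. At 1 µg/kg (6) the 6 libraries alone gave 2, an adjusted p below 0.01 gave 3 and omissions 2 to 6, and at 10 µg/kg (5) the 6 libraries alone gave 8. The cause of these shifts was not tested, beyond the fewer samples or stricter threshold of the alternative itself. Of the other values, 722 log2 fold changes of the 6 genes stayed within the spread of the livers and 38 moved beyond it; over the combinations of a tested gene, dose and alternative, 7397 kept their side of the threshold, 170 lost a call and 49 gained one. DESeq2 called 7 leukocyte markers higher at 30 µg/kg in place of 4.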
